A study of Mus musculus with 4 samples.

Results

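Molecular chaperones are the proteins that help other proteins fold, and the 38 genes described here encode those of the cytosol and the mitochondria together with their partners and regulators. They were listed by symbol, and the list was made with earlier results of these data known. It holds the HSP70, HSP110 and HSP90 families, the J-domain proteins and exchange factors that drive the HSP70 cycle, and the HSP90 co-chaperones. It also holds the CCT ring, the mitochondrial HSP60 and HSP10 pair, the small heat shock protein Hspb1 and the heat shock factors Hsf1 and Hsf2. All 38 were found among the 50600 genes of the count files. The study measured RNA of primary T-helper 17 (Th17) cells, CD4 T cells that make interleukin-17, from mice of strain C57BL/6NJ. There was 1 group of 4 libraries, numbered 1 to 4 as biological replicates in the labels, with no second treatment, genotype or time, so that genes are compared within a library and libraries with each other. The labels give a CD4 T-cell differentiation protocol, a common donor identifier, no sex and no age, and the headers of the files carry a tag of 16 hr that no label explains. Whether each culture came from an animal of its own is not stated, so part of the spread between these libraries may be technical. The p-values below for replicate spread measure that spread, and those for gene pairs test a difference within these libraries.

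HSP70 proteins bind exposed hydrophobic stretches of unfolded proteins in a cycle driven by ATP. J-domain proteins start that cycle by stimulating ATP hydrolysis, and exchange factors end it by releasing ADP. HSP90 acts later, with co-chaperones, on proteins such as steroid receptors and kinases, among them the T-cell kinase Lck, while the CCT ring folds actin and tubulin and the HSP60 and HSP10 chamber folds proteins in the mitochondrial matrix. Some of these genes are transcribed at all times, and others mainly when heat or other stress activates heat shock factor 1, which binds inverted repeats of the bases GAA in promoters. The comparison of interest here was between those constitutive genes and the stress-inducible ones.

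The libraries held 24696730 to 37025016 fragments. They fell in pairs by sex-linked genes: the X-silencing RNA Xist was at 186 and 161 TPM in replicates 1 and 2 and at 0.687 and 0.721 TPM in replicates 3 and 4, while Ddx3y, on the Y chromosome, had 0.442 and 0.446 TPM in replicates 1 and 2 and 88.6 and 83.2 TPM in replicates 3 and 4. 1 animal alone would not give both patterns, so the common donor identifier in the labels cannot stand for 1 animal. TPM is a fragment count per base of exon, scaled to 1000000 in each library, and CPM is the same without division by length. Of 7 T-cell and Th17 marker genes, each reached 1 TPM in all 4 libraries, with Cd4 at 237 ± 16.6 TPM and Il17f at 694 ± 73.6 TPM (SD, n = 4, as for every value given with ±). Of 10 markers of B, myeloid, CD8, natural killer, epithelial and erythroid cells, none reached 1 TPM in every library. The highest, the epithelial marker Epcam, was at 1.26, 0.87, 2.48 and 1.48 TPM in replicates 1 to 4. No fragment was found for 4 (Ms4a1, Lyz2, Ncr1 and Hba-a1), and the summed level of the 10 lay between 1.48 and 2.97 TPM.

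Constitutive chaperones were abundant and the stress-inducible ones ranged from near the limit of detection to high. Of the 38 members, 34 reached 1 TPM in each of the 4 libraries, 27 reached 100 TPM and 9 reached 1000 TPM. These were 89.5%, 71.1% and 23.7% of the members, against 44.8%, 8.72% and 0.542% of all 21764 protein-coding genes of the annotation. The median member was at 385 TPM, and the median of the 9761 protein-coding genes detected at 1 TPM in every library was 31.2 TPM. Together the members held 3.18% ± 0.0373 of all TPM, of which HSP90 took 36.3% ± 0.370, the CCT ring 22.6% ± 0.242, the mitochondrial chaperones 13.8% ± 0.198 and the HSP70 family 10.8% ± 0.219.

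**Figure D1:**
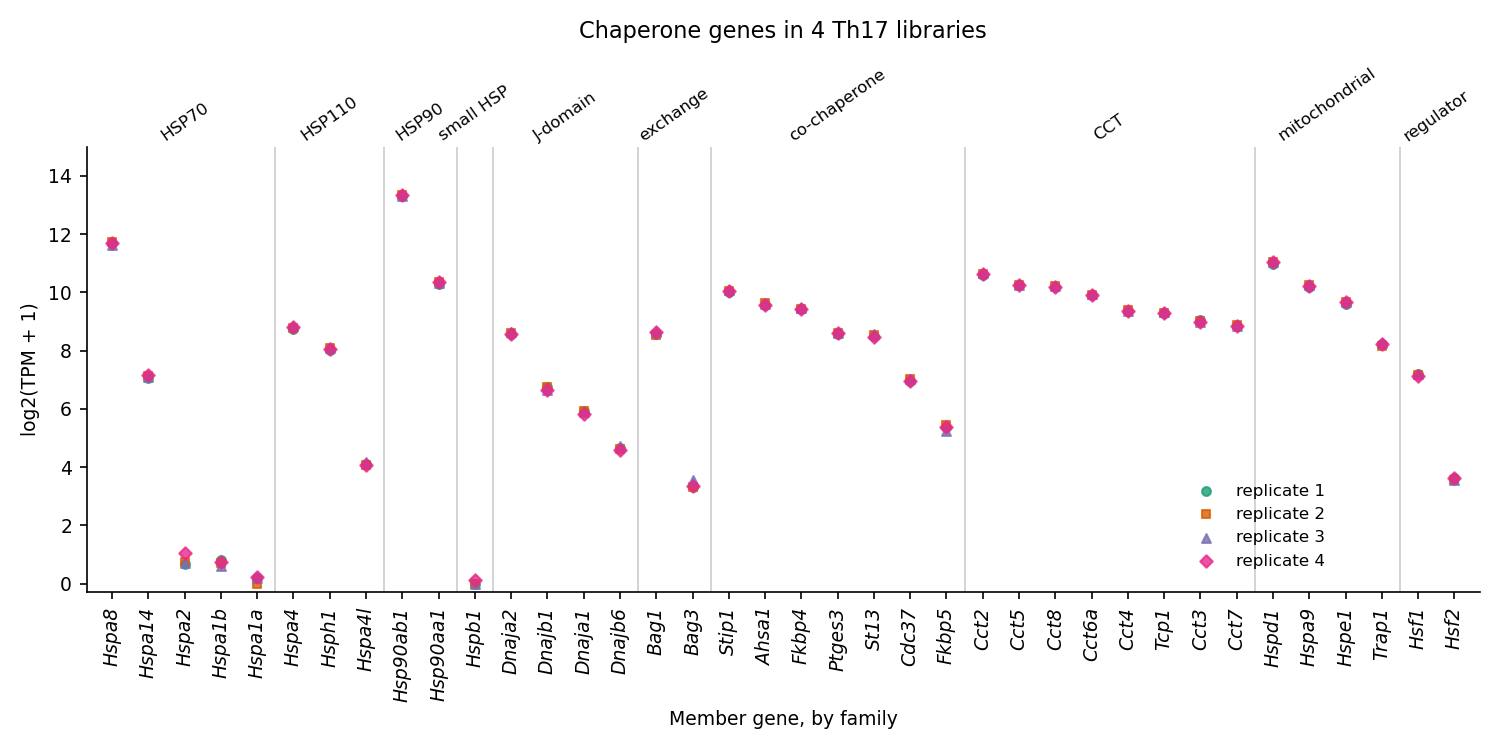
Level of each of the 38 members in each of the 4 Th17 libraries, as log2(TPM + 1), grouped by family and ordered within each family by mean TPM. The 4 points of a gene mostly coincide, Hsp90ab1 is the highest, and Hspa2, Hspa1b, Hspa1a and Hspb1 lie near 0.

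Within the HSP70 family the constitutive and the inducible genes lay at opposite ends. Hspa1a and Hspa1b, neighbours on chromosome 17 in the major histocompatibility complex, encode nearly the same inducible HSP70. Hspa1a (ENSMUSG00000091971.3, chr17:34969190-34972156 in mm10) had 5, 0, 4 and 6 fragments in replicates 1 to 4, a mean of 0.120 TPM, below the 0.138 TPM to which 3 fragments correspond in the shallowest library. Hspa1b (ENSMUSG00000090877.3, chr17:34956436-34959238) had 23, 13, 14 and 21 fragments, or 0.754, 0.633, 0.517 and 0.687 TPM. Hspa8, which encodes the constitutive HSC70, was at 3287, 3376, 3180 and 3316 TPM in replicates 1 to 4 and ranked 19 among all genes. These are bulk libraries, so fewer cells with a transcript and less of it per cell cannot be told apart.

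In each of the 4 libraries Hspa1a and Hspa1b lay far below Hspa8. On the log2(TPM + 1) scale, which understates differences of low genes, Hspa1a minus Hspa8 was -11.52 ± 0.13 and Hspa1b minus Hspa8 was -10.97 ± 0.07. Hspa1a was also below Hspa1b, by -0.56 ± 0.13. At these levels the size depends on the pseudocount: with 0.1 in place of 1 Hspa1a minus Hspa8 was -13.98, Hspa1b minus Hspa8 -12.11 and Hspa1a minus Hspa1b -1.86. Each of these and the other 9 gene pairs compared below had 1 direction in 4 of 4 libraries, with an exact two-sided sign-flip p of 0.13 and an adjusted p of 0.13 over the 12 pairs. That is, rounded, the smallest p that 4 libraries can give, so no pair could pass 0.05.

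Hspa1a and Hspa1b are hard to tell apart by sequence. Their longest open reading frames, of 1926 and 1929 bases, were 99.6% identical, and 66.3% of the 50-base words of the Hspa1a transcript and 62.3% of those of Hspa1b also occurred in other genes. A fragment that lies within such a stretch can align to more than 1 place, and the headers do not say whether such fragments were counted. After the reading frame, where Hspa1a has 810 and Hspa1b 643 bases of transcript, they shared no 50-base word. With each member's TPM divided by its share of words found in no other gene, Hspa1a was at 0.356 ± 0.244 TPM and Hspa1b at 1.72 ± 0.266 TPM, and Hspa8, of whose words 39.4% occurred elsewhere, mostly in pseudogenes, was at 5427 ± 135 TPM. Hspa1b minus Hspa8 was then -10.97, as before. Hspa1a minus Hspa1b was -1.02 on that scale. The division fits only the case in which no fragment from a shared word was counted.

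The upstream sequences of Hspa1a and Hspa1b are shown because both genes carry the same 2-unit heat shock word at the same distance. Both genes were near the limit of detection, and whether the word is bound in these cells was not tested. Heat shock elements were sought in RefSeq promoter windows (GRCm38.p6, the same coordinates as mm10, from 250 bases before to 50 after the start site) as the 2-unit words GAANNTTC and TTCNNGAA and as 3-unit words, which are GAANNTTC followed by NNGAA and TTCNNGAA followed by NNTTC. Both strands are covered, since each word or its partner is the reverse complement, and every 3-unit match contains 2-unit matches. In the 250 bases before the start the 2 genes differed at 3 positions. The 120 bases from -150 to -31 relative to the start site, chr17:34972187-34972306 for Hspa1a and chr17:34959269-34959388 for Hspa1b, both on the minus strand, were identical, with the 2-unit match in capitals.
Hspa1a and Hspa1b: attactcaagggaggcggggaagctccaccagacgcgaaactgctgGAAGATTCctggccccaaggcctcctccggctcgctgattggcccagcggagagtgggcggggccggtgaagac

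Of the other HSP70 genes, Hspa14 lay between these ends and Hspa2 lay at the low end, near Hspa1b. Hspa14, which encodes a ribosome-associated HSP70, was at 137 ± 3.76 TPM, and 321 of its 4057 exon bases also belong to the exons of another gene on the same strand, Gm45902, so that its count may be low. Hspa2, the HSP70 of the testis, was at 0.591, 0.671, 0.626 and 1.07 TPM in replicates 1 to 4, highest in replicate 4. Its 4 libraries held 17, 13, 16 and 31 fragments.

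The HSP110 proteins are exchange factors for HSP70. The inducible Hsph1 (HSP105) was at 260, 270, 269 and 263 TPM in replicates 1 to 4 and the constitutive Hspa4 (APG-2) at 429, 440, 459 and 450 TPM. Hsph1 lay below Hspa4 in each library, by -0.74 ± 0.03 on the log2 scale. That gap depended on which exons counted as length, since the files give the exons of all isoforms together: with the length of 1 principal transcript per gene it was -0.07 ± 0.03. Hspa4l (APG-1), best known from testis, was at 16.2 ± 0.610 TPM and differed from Hspa4 by -4.70 ± 0.05.

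Hsp90ab1, the constitutive HSP90 beta gene, had the highest level of all members and the second highest of all genes. Hsp90aa1, the inducible HSP90 alpha gene (chr12:110690605-110702728), was at 1260, 1316, 1281 and 1298 TPM in replicates 1 to 4, and Hsp90ab1 (chr17:45567775-45573271) at 10080, 10451, 10094 and 10426 TPM. Hsp90aa1 stood at 0.126 ± 0.00108 of the Hsp90ab1 level, a difference of -2.99 ± 0.01 on the log2 scale. Hsp90aa1 shared 47.5% of its 50-base words with other genes, chiefly the transcribed pseudogene Gm12346, and Hsp90ab1 shared 3.44%. With TPM divided by the share of unshared words, Hsp90aa1 was at 2454 ± 45.1 TPM and the difference from Hsp90ab1 was -2.11. Hsp90aa1 alone supplied most of the TPM of the stress-inducible class, at rank 93 among all genes.

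The 4 J-domain proteins, which start the HSP70 cycle, lay below Hspa8 and both HSP90 genes. Dnaja2 was the highest of the 4, at 385 ± 9.11 TPM. Dnajb1, the inducible HSP40, was at 106, 107, 98.6 and 99.3 TPM in replicates 1 to 4, and Dnaja1, a constitutive class A protein, at 59.5, 59.1, 58.8 and 55.7 TPM. Dnajb1 was higher in replicates 1 and 2, the libraries with Xist, than in replicates 3 and 4. Such a split was not particular to Dnajb1. Cct3 was at 525 and 521 TPM in replicates 1 and 2 and at 502 and 504 TPM in replicates 3 and 4. Hspa4 split the other way, at 429 and 440 against 459 and 450 TPM. The relation of these splits to Xist was not tested. Dnajb1 exceeded Dnaja1 per length in each library, by 0.81 ± 0.05 on the log2 scale. Dnajb1 has 3204 bases of exon and Dnaja1 8629, and the direction turned when length was not used: in CPM the difference was -0.61. With principal transcript lengths it was 0.29. Dnajb6, known for holding back protein aggregation, was at 23.9 ± 0.970 TPM, the lowest constitutive member. With principal transcript lengths it was at 62.4 ± 2.53 TPM, beside Dnaja1 at 61.7 ± 1.85 TPM.

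Bag1 and Bag3 are exchange factors that share a BAG domain. Bag3, which is induced by stress and steers clients to autophagy, was at 8.89, 8.89, 10.7 and 9.34 TPM in replicates 1 to 4, and Bag1 at 381, 367, 398 and 393 TPM. Bag3 minus Bag1 was -5.21 ± 0.08. The small heat shock protein gene Hspb1 had no fragment in replicates 1 to 3 and 1 fragment in replicate 4, below the 0.397 TPM of 3 fragments in the shallowest library. Of its words, 50.1% occurred elsewhere, almost all in the pseudogene Hsp25-ps1, which had no fragment.

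HSP90 co-chaperones were led by Stip1 (HOP), which bridges HSP70 and HSP90, at 1050 ± 15.9 TPM. Ahsa1, the activator of the HSP90 ATPase, was at 772 ± 14.8 TPM, Ptges3 (p23) at 385 ± 5.50 TPM, St13 (HIP), which stabilises HSP70 bound to ADP, at 366 ± 11.8 TPM, and Cdc37, which brings kinases to HSP90, at 126 ± 3.77 TPM. The immunophilins Fkbp5 and Fkbp4 act on steroid receptors in opposite directions, and Fkbp5 is a target gene of glucocorticoids. Fkbp5 was at 40.1, 42.4, 37.2 and 40.3 TPM in replicates 1 to 4 and Fkbp4 at 685, 695, 697 and 695 TPM. Fkbp5 minus Fkbp4 was -4.08 ± 0.08.

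All 8 subunits of the CCT ring were among the abundant genes, from Cct2 at 1586 ± 21.5 TPM to Cct7 at 461 ± 9.35 TPM. The ring holds each subunit once. In TPM the highest subunit exceeded the lowest by 3.44 ± 0.0915 times within a library. Before division by length the subunits lay closer together, from 1199 ± 19.0 CPM for Cct2 to 818 ± 9.33 CPM for Cct4, a spread of 1.47 ± 0.0259 times. The exon lengths in the files run to 6778 bases for Cct7 and 6370 for Cct3, whose principal transcripts have 2441 and 1977 bases. With principal transcript lengths the spread over the 7 subunits that have one was 1.86 ± 0.0328 times, and Cct3 was at 1139 ± 25.9 TPM. Cct6a has no principal transcript in the annotation used.

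**Figure D2:**
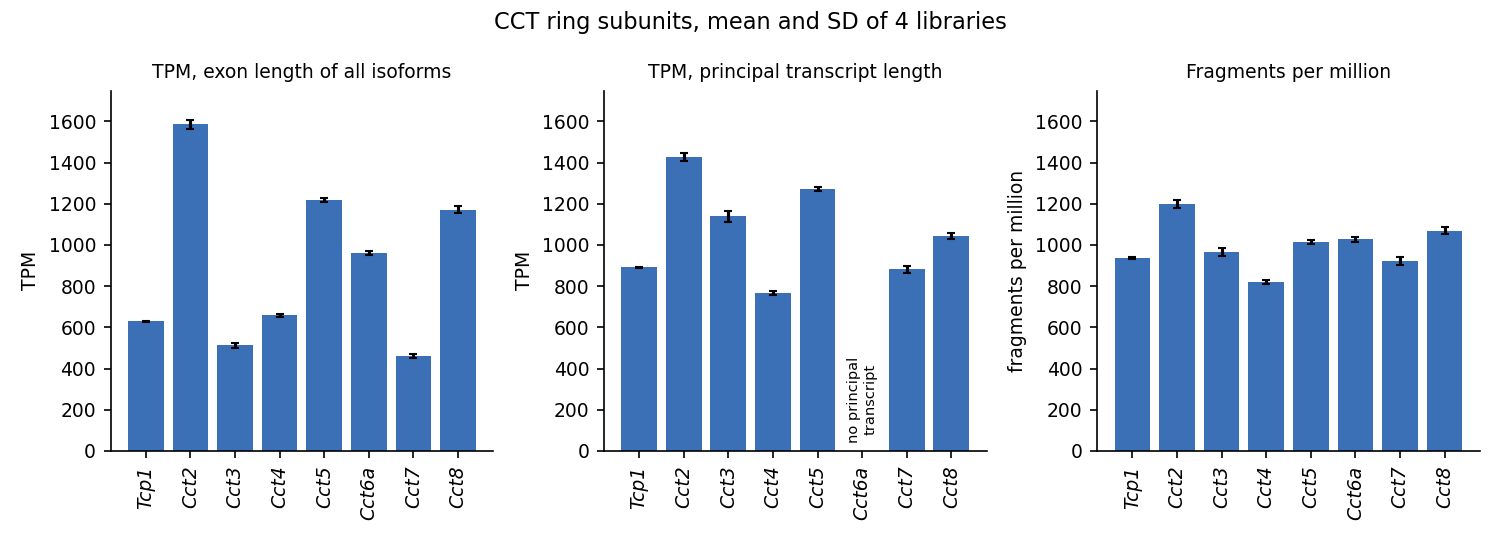
Mean level and SD over 4 libraries of the 8 CCT subunits, in TPM with the exon length of all isoforms (left), in TPM with the length of 1 principal transcript (middle, Cct6a not shown) and in CPM (right). The spread narrows from 3.44 times on the left to 1.86 times in the middle and 1.47 times on the right, and Cct2 is the highest in each.

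In the mitochondria, Hspd1 encodes HSP60 and Hspe1 its lid HSP10, and both genes are read in opposite directions from a common promoter. Hspe1 was at 782, 804, 816 and 820 TPM in replicates 1 to 4 and Hspd1 at 1992, 2100, 2102 and 2120 TPM, both lowest in replicate 1. Hspe1 minus Hspd1 was -1.37 ± 0.01. It was -0.56 with principal transcript lengths. Of the Hspd1 words, 42.1% occurred elsewhere, mainly in the pseudogene Hspd1-ps3. With the TPM of both genes divided by their share of unshared words, Hspe1 minus Hspd1 was -1.78. Hspa9, the mitochondrial HSP70 mortalin, was at 1173, 1222, 1222 and 1181 TPM, and Trap1, the mitochondrial HSP90, at 295 ± 6.21 TPM. Trap1 minus Hspa9 was -2.02 ± 0.04.

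The site between Hspe1 and Hspd1 is shown because it carries the longest run of heat shock units found in any member's window, although both genes are classed as constitutive here. The RefSeq start sites used, at 55088148 for Hspe1 and 55087932 for Hspd1 on chromosome 1, have 215 bases between them. The 3-unit words overlap into 1 run of 18 bases, in capitals below, which reads in both directions and begins at -89 relative to the Hspe1 start. Dnajb6 and Hsph1 also held a 3-unit match, which begins at -46 in the window of the first Dnajb6 start and at 15 bases after the second Hsph1 start. The lines below give Hspe1 at chr1:55088053-55088082 on the plus strand, Dnajb6 at chr5:29735843-29735872 on the plus strand and Hsph1 at chr5:149636280-149636309 on the minus strand.
Hspe1: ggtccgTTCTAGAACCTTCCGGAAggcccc
Dnajb6: cagctccgaGAATCTTCCGGAAcgctagac
Hsph1: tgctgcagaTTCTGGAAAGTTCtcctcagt

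A 3-unit match was present in the windows of 4 of the 31 members that have one, or 12.9%, and of 0.662% of all 27025 genes. They were Hspd1, Hspe1, Dnajb6 and Hsph1, of which Hspd1 and Hspe1 share the same site. A 2-unit match was present for 14 of 31 members, or 45.2%, and for 17.0% of all genes. By class, 5 of 6 stress-inducible members and 9 of 21 constitutive ones with a window held a 2-unit match. Hspa1a and Hspa1b, identical around their match, are both among the 5. The 1 inducible member with a window but no match was Dnajb1. Hsp90aa1, the highest inducible member, and Hspa8, Hsp90ab1, Hspa9, Cct4, St13 and Hsf1 had no window and enter none of these counts. The levels of members with a 3-unit match ran from 23.9 TPM for Dnajb6 to 2079 TPM for Hspd1. Whether a match goes with the level of a gene was not tested.

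Among the heat shock factors, Hsf2 was at 11.3, 10.8, 10.8 and 11.4 TPM in replicates 1 to 4 and Hsf1, the factor that heat activates, at 145, 141, 145 and 139 TPM. Hsf2 minus Hsf1 was -3.57 ± 0.06. The exons of Hsf2 sum to 9606 bases against 2604 in its principal transcript, and with principal lengths the difference was -1.72 ± 0.06.

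**Figure D3:**
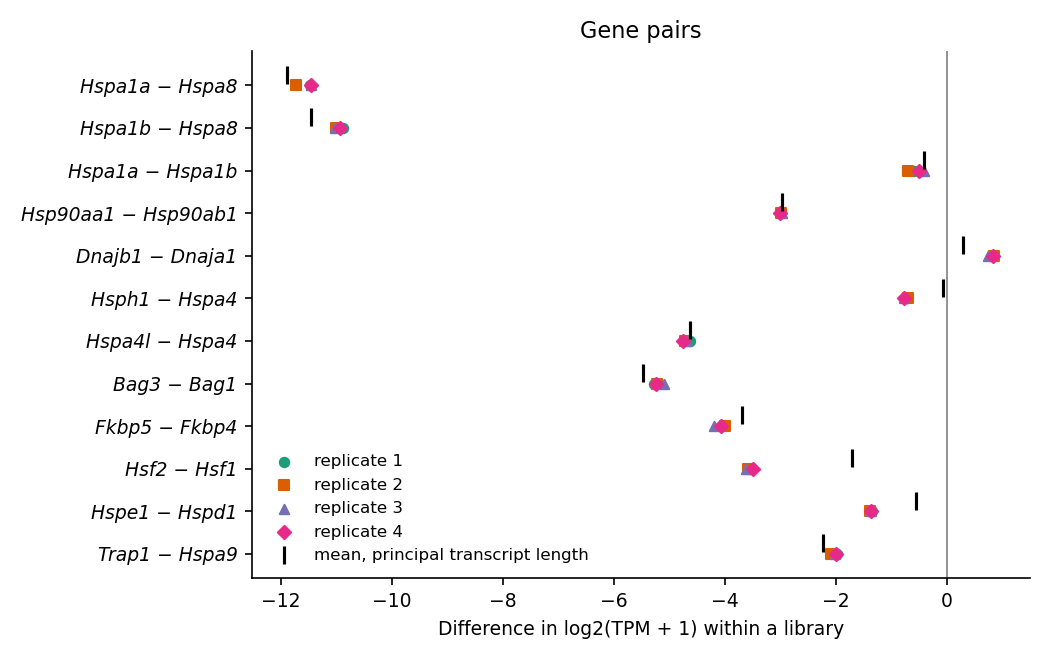
Difference in log2(TPM + 1) of the first minus the second gene of 12 pairs in each of the 4 libraries (points) and its mean with principal transcript lengths (black bars). All pairs but Dnajb1 and Dnaja1 lie below 0 in each library, and the bars stand apart from the points most for Hsf2 and Hsf1.

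Taken as classes, the 26 constitutive members had a median of 644 ± 3.24 TPM and the 7 stress-inducible members one of 9.46 ± 0.854 TPM. In log2(TPM + 1) the class medians were 9.33 ± 0.01 and 3.38 ± 0.11. The constitutive class exceeded the inducible class by 6.03, 6.03, 5.79 and 5.95 in replicates 1 to 4, a mean of 5.95 ± 0.11. No test was made because the members were chosen with results of these data known. The inducible median is the value of Bag3. The size of the difference rests on Hspa1a, Hspa1b and Hspb1: with members under 1 TPM left out it was 1.96, and with a wider inducible class that also takes Dnaja1, Hspd1, Hspe1, Stip1, Ahsa1, Fkbp4 and Hspa4l it was 1.55. The classes overlapped, since Hsp90aa1 at 1289 ± 23.7 TPM exceeded most constitutive members and Dnajb6 and Dnaja1 lay below Dnajb1. Constitutive members held 3.00% ± 0.0348 of all TPM and stress-inducible members 0.167% ± 0.00274.

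**Figure D4:**
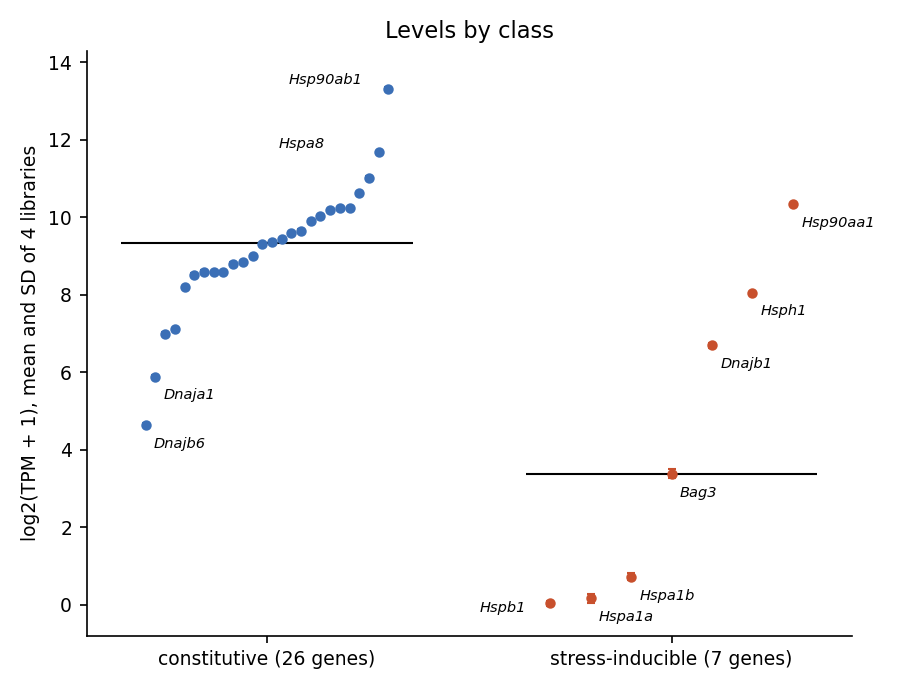
Mean log2(TPM + 1) and SD over 4 libraries of the 26 constitutive (left) and 7 stress-inducible (right) members, with a line at each class median. Constitutive genes lie between Dnajb6 and Hsp90ab1, and inducible genes between Hspb1, near 0, and Hsp90aa1.

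No member was called variable between the 4 libraries beyond the spread usual at its abundance. The filter on low counts kept 36 of the 38 members, all but Hspa1a and Hspb1. In edgeR's quasi-likelihood fit 0 of these 36 had an adjusted p under 0.05, where 36 of all 11847 genes tested did, a share of 0.304%. At an unadjusted p under 0.05 there were also 0 members, against 5.69% of all genes tested. That unadjusted count was 2 of 36 members without replicate 1 and 1 of 36 without replicate 4. The share of all genes with a replicate left out is not given, so nothing is read from these counts. The lowest adjusted p of a member was 0.966, for Fkbp5, by edgeR with Benjamini-Hochberg adjustment. In the same fit the Th17 cytokine gene Il17f was called, with an adjusted p of 0.00785.

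Over the 36 members tested, the coefficients of variation ran from 0.406% for Tcp1, the CCT alpha subunit, to 30.4% for Hspa2, with a median of 2.23%, against 5.08% over all genes tested. Abundance differs between these sets. Among genes with a mean of 100 TPM or more, the median was 2.06% for 28 members and 2.72% for all 2033 genes tested. Tcp1 was at 627, 627, 632 and 629 TPM in replicates 1 to 4. Bag3, with 167 to 265 fragments, varied by 9.03%, and Hspa1b by 15.5%.

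**Figure D5:**
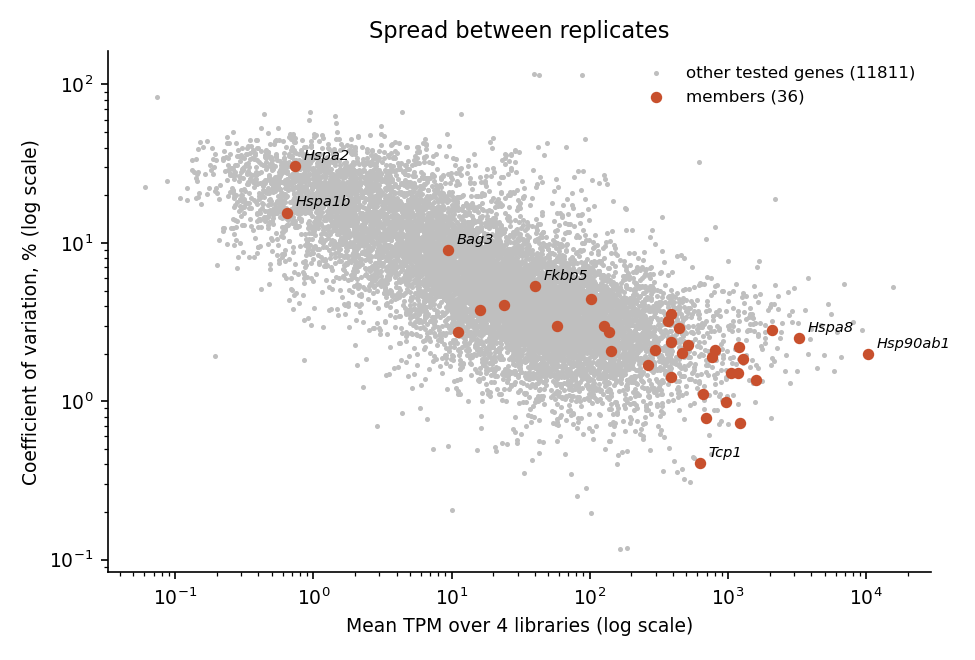
Coefficient of variation over the 4 libraries against mean TPM, both on log scales, for the 36 members tested (orange) and the other genes tested (grey). The members follow the fall of the grey cloud with level, with Hspa2 at 30.4% and Tcp1 at 0.406%.

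Genes that work beside the members were mostly present too. Of 14 chaperones of the endoplasmic reticulum, all reached 1 TPM in each library and 12 reached 100 TPM, led by the calcium-binding chaperone Calr at 1752 ± 23.4 TPM and the HSP70 Hspa5 at 1281 ± 22.2 TPM, with the J-domain protein Dnajb9 the lowest at 24.8 ± 1.54 TPM. Of 16 other HSP90 co-chaperones all reached 1 TPM and 9 reached 100 TPM, led by Nudc at 572 ± 21.3 and Ruvbl2 at 338 ± 7.29 TPM, with Aarsd1 the lowest at 4.30 ± 0.320 TPM. Of 15 other mitochondrial chaperones and proteases all reached 1 TPM, led by the proteases Clpp at 214 ± 10.1 and Lonp1 at 189 ± 6.93 TPM, and Clpb was the lowest at 15.8 ± 0.213 TPM. Among 11 genes of prefoldin and CCT cofactors, 10 reached 1 TPM. Pfdn5 and Pfdn6, subunits of prefoldin, which hands actin and tubulin to CCT, were at 245 ± 2.96 and 235 ± 3.20 TPM, and Cct6b, the testis form of Cct6a, at 0.106 ± 0.0935 TPM.

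The remaining lists held more low genes. Of 24 other J-domain proteins and exchange factors, 21 reached 1 TPM and 7 reached 100 TPM, led by Dnajc8 at 215 ± 2.79 and Hspbp1 at 204 ± 7.52 TPM, while Hspa12b had no fragment, where 3 fragments in the shallowest library would be 0.111 TPM. Of 9 genes listed by name as other small heat shock proteins, only Hspb11, at 9.41 ± 0.686 TPM, and Hspb6, at 1.88 ± 0.541 TPM, reached 1 TPM in every library. Whether Hspb11 belongs to that family was not examined. On that list 5 had no fragment. The lowest by the naming rule, Hspb2, was among those 5, with a floor of 0.491 TPM. Among the other heat shock factor genes Ier5, a partner of Hsf1, was at 154 ± 8.23 TPM and Hsbp1, which binds heat shock factors, at 81.4 ± 4.36 TPM, and Hsf4, the factor of the lens, at 0.0846 ± 0.102 TPM was under its floor of 0.234 TPM. Of the 93 genes on these 7 lists the filter on low counts kept 81 for edgeR's fit. Of those 81, 0 had an adjusted p under 0.05, against 0.304% of all genes tested. At an unadjusted p under 0.05 there were 4, against 5.69% of all genes tested. Floors of 3 fragments cover counting error only, while each value after ± is an SD over the 4 libraries.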

How the data were processed

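For each of 4 Th17 libraries the authors deposited a table of raw counts of fragments per gene, without normalization. Per the file headers, featureCounts 1.4.6-p4 counted paired-end alignments over GENCODE vM13, asking that both ends be aligned and with strand option 2 (reverse). The build is mm10 per the labels, and no version of the aligner was found in them. Exon lengths in the deposited tables sum the exons of every isoform, so a gene with long exons that these cells do not use gets a lower TPM. TPM was computed here from counts and those lengths, with log2(TPM + 1) for differences. Symbols, positions and principal transcripts came from GENCODE M21, and promoter sequences from RefSeq (GRCm38.p6) for 31 of 38 members.

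Spread between replicates was tested over all genes with edgeR 4.0.16 in R 4.3.3 (TMM, filterByExpr, an intercept, robust prior, older deviance estimate), with each gene's quasi-dispersion over the trend referred to the upper tail of F, and was tested on simulated data first. Pairs of genes used an exact sign-flip test. Shared sequence was measured as the percentage of 50-base words of a gene that any other gene's transcripts in GENCODE M21 hold, in either orientation. Alternatives used DESeq2 1.42.0 size factors, other scales and each replicate left out.

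Depth was 24696730 to 37025016 fragments, and 3 fragments were taken as the floor. All 38 members are named, with the 2 highest and the lowest of each list of other chaperone genes. Members, classes and lists were chosen with earlier results of these data known. The 2 length and word-sharing alternatives were added after seeing the data. Protein sequences were not analysed here.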

Additional observations from a re-analysis of the deposited data

Results flagged for a closer look

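In 3 of the 38 members 1 library stood apart from the other 3 by more than Dixon's 95% limit for groups of 4, a limit that chance passes in about 1 of 20 groups. Hspb1, with a fragment in only 1 library, could not be flagged, and the share of all genes past the limit is not given. Hspa2 was at 1.07 TPM in replicate 4 and between 0.591 and 0.671 TPM in the others, from 13 to 31 fragments. Hspd1 was at 1992 TPM in replicate 1 and between 2100 and 2120 TPM in the others. Fkbp4 was at 684.8 TPM in replicate 1 and between 694.9 and 696.6 TPM in the others, a gap of little size because the other 3 libraries lay so close together. None of the 3 was called variable by edgeR, with adjusted p of 0.993, 0.993 and 0.997.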

How the results depend on the processing

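No member was called variable under any of the 7 alternatives run for that test. At an unadjusted p under 0.05 there were 2 members without replicate 1 and 1 without replicate 4. The share of all genes beside these counts is not given, so nothing is read from them. The count of all genes called, 36, was 94 with no filter on low counts, 17 with a prior without robust estimation and between 15 and 37 with 1 replicate left out, lowest without replicate 4. The difference between constitutive and stress-inducible class medians, 5.95, kept its sign under all 13 alternatives. It was 6.08 with a pseudocount of 0.1, 6.43 in CPM, 6.55 with principal transcript lengths, 4.97 with class means, 5.77 with Hspa2 and Hspa4l counted as constitutive, 1.96 with members under 1 TPM left out and 1.55 with the wide inducible class. The members' share of TPM, 3.18%, was 3.13% in CPM, 3.26% without genes of the mitochondrial chromosome and 3.00% with principal lengths. It was 3.79% with member TPM divided by the share of unshared words, while other genes were left as they were. The CCT spread of 3.44 times was 1.47 in CPM, 1.86 with principal lengths and 3.34 after the division by unshared words. Over the 12 pairs 107 alternatives kept the direction and 1 turned it: Dnajb1 minus Dnaja1 was -0.61 in CPM, where length is not divided out. Principal lengths moved the median of 11170 detected genes by -0.25 on the log2 scale, which cancels between genes of a library. With 1 group of libraries no pairing between groups was possible, and genes were paired within each library. Genes under about 10 fragments a library were not tested for spread. The values of Hspa1a, Hspa1b, Hspb1 and Hspa2 rest on counts of 0 to 31 a library.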
